A study of Mus musculus with 12 samples.

Results

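The genes described here are 10 genes that mark resident and recruited macrophages of the mouse kidney, Csf1r, Adgre1, C1qa, C1qb, C1qc, Cx3cr1, Mrc1, Cd68, Ccr2 and Ly6c2, read by symbol from a count table of 55487 genes. All 10 were found. C1qa, C1qb, C1qc and Cx3cr1 were set as the resident side and Ccr2 and Ly6c2 as the monocyte side, and the other 4 are shared by both kinds of cell. RNA-seq had been run on 12 kidney libraries, 3 in each of 4 groups. Ctrl and PT-KO mice were sham-treated. Ctrl+I/R and PT-KO+I/R mice had both kidneys made ischemic for 22 min and were studied after 24 h of reperfusion (I/R). The control mice carried floxed alleles of ALR (gene symbol Gfer) without Cre, and PT-KO mice carried the same floxed alleles with Ggt1-Cre, which acts in proximal tubule cells, so the floxed alleles were common to all 4 groups. The labels give the genotypes as WT and ALR knockdown, and the methods of the study give a mixed C57BL/6 background and an age of 6 to 8 weeks. The genotype label of the PT-KO+I/R samples runs both names together, and their titles and treatment label gave the group. The third Ctrl library was placed by its column name, since the titles number the controls 1, 2 and 4.

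Macrophages live in the kidney interstitium from before birth and are renewed in place, while monocytes made in the bone marrow enter from the blood after injury and can turn into macrophages. Csf1r is the receptor for the growth factors Csf1 and Il34, on which macrophages depend. C1qa, C1qb and C1qc encode the 3 chains of C1q, the recognition part of the first complement component, which tissue macrophages make. Cx3cr1 is the receptor for fractalkine (Cx3cl1) and is high in kidney resident macrophages. Ccr2 is the receptor for Ccl2, Ccl7 and Ccl12 that draws monocytes out of the marrow, and Ly6c2 encodes a surface protein of the monocytes that carry it. Adgre1 encodes F4/80, a surface receptor of mature mouse macrophages, Mrc1 the mannose receptor, and Cd68 a membrane protein of lysosomes.

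Library totals lay between 12165089 and 23123693 counts. Gfer, the targeted gene, was not lower in the libraries labelled as knockout: it stood at 12.7, 11.4 and 14.4 CPM (counts scaled to a library of 1000000 with TMM normalization) in the Ctrl libraries and at 9.97, 17.1 and 15.03 CPM in those of PT-KO. After injury it stood at 15.3, 20.00 and 17.6 CPM in Ctrl+I/R libraries and at 21.6, 22.8 and 21.6 CPM in the PT-KO+I/R ones. The count covers the whole gene in all cells of the sample, so it does not check the deletion, and PT-KO and PT-KO+I/R stand below for the libraries labelled so. Ctrl libraries 1 and 2 had 22402 and 19755 counts of the female transcript Xist, while the other 10 libraries had at most 11, so sex is partly mixed with I/R in Ctrl+I/R against Ctrl, with genotype in PT-KO against Ctrl, and enters the interaction. Each was refitted with sex as a covariate. Both libraries with high Xist were Ctrl ones, so in these refits the Ctrl level rested on Ctrl library 3 alone. Sex and the particular level of that library cannot be told apart there. The labels name kidney cortex: the 6 proximal tubule markers summed to 12292 to 14048 CPM in the sham-treated libraries, the 4 podocyte markers to 366 to 612 CPM, and 2 markers of inner medulla were not absent, at 27.4 to 102 CPM.

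The counts of Ly6c2 and Csf1r can hold reads of a neighbouring gene. Ly6c2 lies on chromosome 15 at 75108158 to 75111970 (mm10, minus strand), 59327 bp from Ly6c1, which endothelial cells make in large amounts. Their coding sequences of 393 bases differ at 9 positions with no gap (97.7% identical), and the longest identical run is 188 bases. The first 150 coding bases of both genes, from GENCODE M21, are shown because 6 of the 9 differences (capitals) fall in them.
Ly6c1: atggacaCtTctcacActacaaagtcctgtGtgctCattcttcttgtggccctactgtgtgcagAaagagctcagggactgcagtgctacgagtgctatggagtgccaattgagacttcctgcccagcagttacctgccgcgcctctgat
Ly6c2: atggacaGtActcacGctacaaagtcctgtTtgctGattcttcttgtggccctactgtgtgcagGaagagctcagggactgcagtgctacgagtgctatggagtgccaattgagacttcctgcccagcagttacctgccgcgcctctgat
Of the 50-base stretches of Ly6c2 transcripts, 13.9% also occur in Ly6c1, and the libraries held only 0.556 to 6.90 counts of Ly6c2 for each 100 of Ly6c1, so the Ly6c2 count is uncertain. The second case is Csf1r, whose exons overlap those of Hmgxb3 on the opposite strand over 873 bases, 15.1% of its exon length, and whether the counting used strand is not given in the sources used here. Ccr2 shares 1.91% of its 50-base stretches with other genes, and Cx3cr1 1.06%. The other 6 members share none. Cx3cr1 (119901616 to 120069879, minus strand) and Ccr2 (124101950 to 124113557, plus strand) both lie on chromosome 9, Adgre1 on chromosome 17 (57358691 to 57483527, plus strand), Cd68 on chromosome 11 (69664213 to 69666153, minus strand) and Mrc1 on chromosome 2 (14229392 to 14332057, plus strand).

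The genes for the C1q chains sit side by side on chromosome 4 within 18675 bp, all on the minus strand, in the order C1qb (136880129 to 136886187), C1qc (136889804 to 136893065) and C1qa (136895917 to 136898803). The 250 bases before the RefSeq start sites (GRCm38.p6) of C1qb and C1qc, which moved together, are shown beside those of Cx3cr1 and Cd68, the members that ended farthest apart. Capitals mark the ETS core GGAAGT or the longer PU.1 letters GAGGAAGT, which contain that core, searched on both strands. PU.1 is the ETS factor that macrophages need.
C1qb, chr4:136886201-136886450, minus strand: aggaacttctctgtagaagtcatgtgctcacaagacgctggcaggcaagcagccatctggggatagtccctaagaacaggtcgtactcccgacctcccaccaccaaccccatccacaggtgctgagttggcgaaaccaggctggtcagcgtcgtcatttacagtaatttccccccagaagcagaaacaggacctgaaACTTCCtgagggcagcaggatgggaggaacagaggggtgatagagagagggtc
C1qc, chr4:136892915-136893164, minus strand: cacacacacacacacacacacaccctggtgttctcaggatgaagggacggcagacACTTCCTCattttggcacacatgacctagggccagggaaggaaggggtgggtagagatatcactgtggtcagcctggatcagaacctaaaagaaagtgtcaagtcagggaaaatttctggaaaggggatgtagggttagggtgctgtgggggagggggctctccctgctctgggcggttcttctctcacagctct
Cx3cr1, chr9:120068297-120068546, minus strand: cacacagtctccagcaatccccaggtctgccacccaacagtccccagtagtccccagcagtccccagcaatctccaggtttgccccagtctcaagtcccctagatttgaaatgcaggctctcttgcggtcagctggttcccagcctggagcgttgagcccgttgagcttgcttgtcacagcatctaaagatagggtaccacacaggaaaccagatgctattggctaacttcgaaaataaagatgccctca
Cd68, chr11:69666171-69666420, minus strand: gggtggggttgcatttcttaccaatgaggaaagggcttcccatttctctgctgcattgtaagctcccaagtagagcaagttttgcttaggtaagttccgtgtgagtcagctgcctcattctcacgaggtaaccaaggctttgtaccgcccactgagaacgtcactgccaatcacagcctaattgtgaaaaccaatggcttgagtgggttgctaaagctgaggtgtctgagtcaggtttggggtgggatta
The C1qb window held the ETS core on the opposite strand 53 to 48 bases before the start, and the C1qc window held the PU.1 letters on the opposite strand 195 to 188 bases before it. In the windows of Cx3cr1 and Cd68 neither was found. Of the other members with an entry, Mrc1 had the ETS core, Ly6c2 the PU.1 letters and Ccr2 neither. A window of Ly6c1, which is not a member, held the PU.1 letters as well, 127 to 120 bases before its start. Of all 32851 promoter windows of this length, 19.7% held the ETS core and 2.44% the PU.1 letters. Promoters of C1qa, Adgre1 and Csf1r are not shown.

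In the uninjured Ctrl kidney Csf1r and the C1q chains had the highest levels per length. The mean of Csf1r was 9.81 CPM per kb ± 1.64 (SD, n = 3), followed by C1qa at 8.81, C1qb at 6.73 and C1qc at 4.26 CPM per kb, and each of these overlapped its neighbour over the 3 libraries. Below them Cd68 stood apart at 1.70 CPM per kb. Adgre1 at 1.15, Mrc1 at 1.01, Cx3cr1 at 0.867 and Ccr2 at 0.759 CPM per kb overlapped in turn, and Ly6c2 was lowest at 0.447 CPM per kb. PT-KO kidneys had the same order, from 8.999 CPM per kb for Csf1r to 0.273 for Ly6c2. After I/R the order changed: in Ctrl+I/R the C1qa and C1qb levels of 20.7 and 16.3 CPM per kb led and Csf1r was the fifth, and in PT-KO+I/R Cd68 led at 20.9 CPM per kb while Adgre1 at 0.119 and Cx3cr1 at 0.0392 CPM per kb came last.

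**Figure D1:**
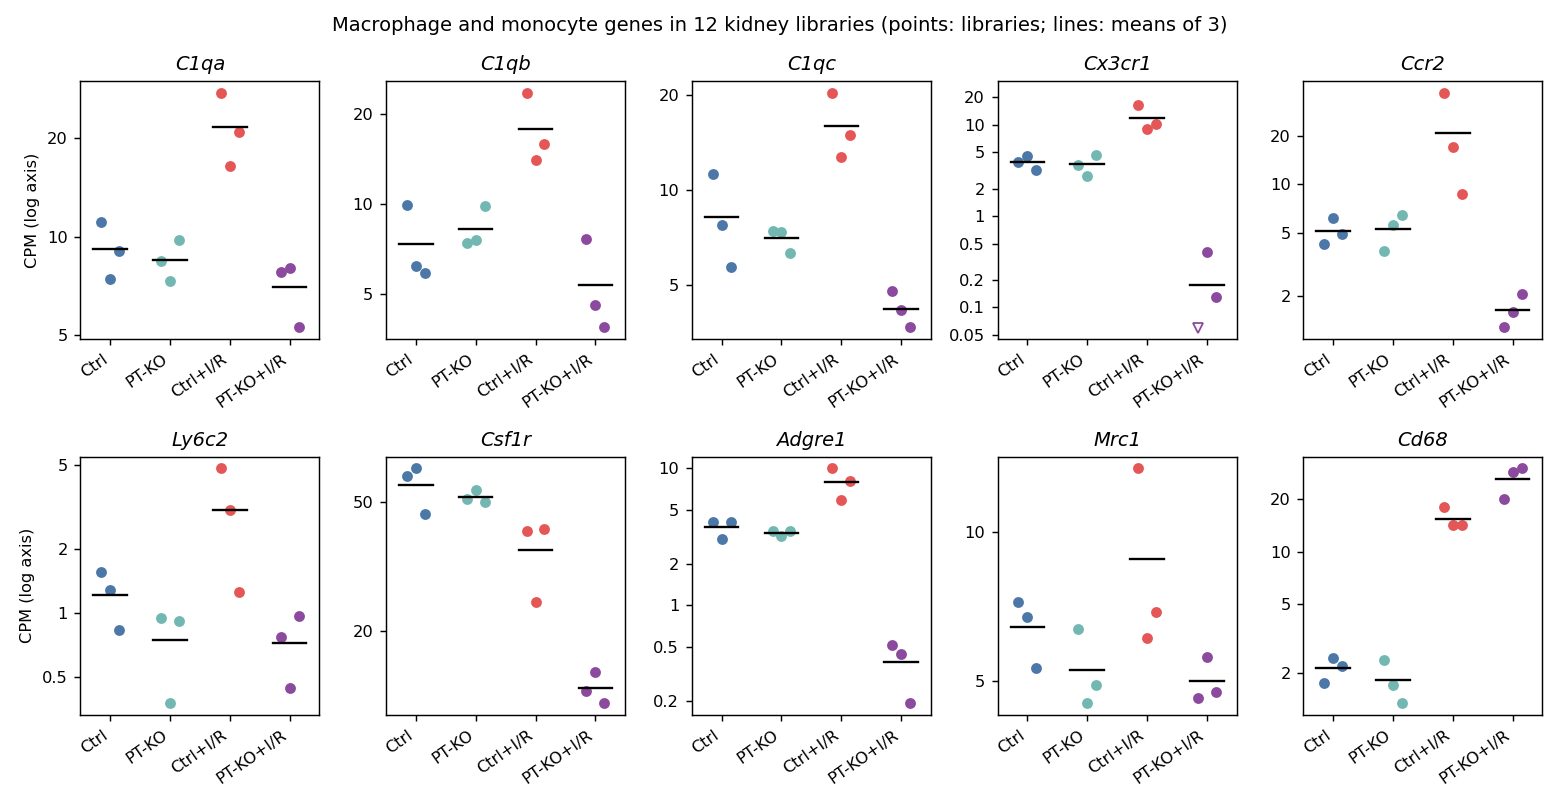
CPM of each member (vertical log axes) in each of 12 libraries (points), by group, with the mean of 3 libraries as a line. The open triangle is a Cx3cr1 count of 0 in PT-KO+I/R, drawn at the bottom of its axis. In PT-KO+I/R 9 of the 10 genes lie below Ctrl+I/R in every library, and Cd68 lies above it.

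The genotype labels were first compared without I/R, as PT-KO beside Ctrl. No member was called in this comparison, that is, reached an adjusted p under 0.05 in the edgeR quasi-likelihood test with Benjamini-Hochberg adjustment over all tested genes. The background was 0% of 15291 tested genes. At an unadjusted p under 0.05 there were 2573 genes and 0 members, and DESeq2 called 458 genes and 0 members. Leaving out Ctrl library 3 kept only the Ctrl libraries with high Xist. That fit called 1930 genes and 0 members, with 2 members at an unadjusted p under 0.05. Leaving out any other library called 0 to 3 genes. The replicate block called 1378 genes and 0 members, with 1 member at an unadjusted p under 0.05. The groups overlapped for all 10 members, where 21% of all tested genes did not overlap. The median log2 fold change of the members was -0.13, beside -0.01 over all genes. Cx3cr1, for example, had 3.92, 4.59 and 3.21 CPM in Ctrl and 3.66, 2.75 and 4.66 CPM in PT-KO, a log2 fold change of -0.09 with a 95% interval of -0.59 to 0.42. The widest interval was that of Ly6c2, -1.57 to 0.11 around -0.73. With sex as a covariate 0 members were called, and the values of Csf1r, C1qc and Cx3cr1 turned to 0.18, 0.30 and 0.19. In bulk tissue, fewer cells of a kind and less RNA per cell cannot be told apart, here and in every comparison that follows. The labels do not say that each library is a separate animal, so p-values measure the spread between these libraries.

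The effect of I/R in control mice was read from Ctrl+I/R against Ctrl. Of the 10 members, 7 were called, all of them higher (against a background of 19.4% of 15567 tested genes called, 11.4% higher and 7.97% lower), and the groups did not overlap for 8 members, against 43.7% of all genes. The median log2 fold change was 1.26 over the members and -0.01 over all genes. With total counts in place of TMM the median of all genes moved by 0.12 and the balance of calls over all genes from 1778 higher and 1241 lower to 2346 higher and 766 lower, while the 7 members stayed called. The rise ran through the resident side, Ccr2, Adgre1 and Cd68.

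On the resident side, C1qa had 11.1, 7.40 and 9.03 CPM in Ctrl and 27.5, 16.4 and 20.8 CPM in Ctrl+I/R. Every injured library stood above every sham library, a log2 fold change of 1.24 ± 0.23 (SE, edgeR adjusted p = 0.0168). C1qb had 9.90, 6.18 and 5.87 against 23.5, 14.0 and 15.8 CPM (1.29 ± 0.28, edgeR adjusted p = 0.0237). C1qc, with 11.2, 7.77 and 5.71 against 20.3, 12.7 and 14.9 CPM, came nearest to the threshold (0.97 ± 0.28, edgeR adjusted p = 0.049) and lost its call when any 1 of the 6 libraries was left out (0.0531 to 0.143). Cx3cr1 rose from 3.92, 4.59 and 3.21 to 16.6, 8.93 and 10.2 CPM, a log2 fold change of 1.62 ± 0.28 (edgeR adjusted p = 0.0142). Whether it rose more than the C1q chains was not tested. Library 1 of Ctrl+I/R was the highest for all 4 genes, and the groups did not overlap.

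On the monocyte side, Ccr2 had 4.27, 6.18 and 4.93 CPM in Ctrl and 37.2, 17.2 and 8.66 CPM in Ctrl+I/R, a log2 fold change of 2.06 ± 0.50 (edgeR adjusted p = 0.0314). The injured libraries were far apart in this gene, yet each lay above all shams. Without Ctrl+I/R library 1 the value was 1.34 (edgeR adjusted p = 0.0635). Ly6c2 followed the same order of libraries, with 4.82, 3.08 and 1.26 CPM after I/R against 1.56, 1.28 and 0.831 CPM. Library 4 of Ctrl+I/R fell within the range of Ctrl, and Ly6c2 was not called (log2 fold change 1.34 ± 0.50, edgeR adjusted p = 0.0949), though DESeq2 called it (1.33, adjusted p = 0.0481) and edgeR did with a replicate block (adjusted p = 0.0380). Its neighbour Ly6c1 had 69.9, 80.9 and 67.0 CPM after I/R and 70.0, 53.8 and 52.6 CPM before, a difference of 0.31 ± 0.14 on the log2 scale that was not called either.

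Among the shared genes, Cd68 changed most. It had 1.76, 2.45 and 2.22 CPM in Ctrl and 18.0, 14.3 and 14.2 CPM in Ctrl+I/R, a 7.27-fold difference (log2 fold change 2.86 ± 0.20, edgeR adjusted p = 0.00231). Adgre1 rose from 4.07, 3.06 and 4.05 to 10.004, 5.85 and 8.10 CPM (1.11 ± 0.26, edgeR adjusted p = 0.028). Csf1r went the other way, from 60.4, 63.6 and 45.9 to 40.6, 24.5 and 41.2 CPM, with no overlap. Its log2 fold change of -0.67 ± 0.22 missed the threshold (edgeR adjusted p = 0.0719) but passed it in DESeq2, without a low-count filter, with a replicate block and in 1 fit to all 12 libraries. Hmgxb3, which overlaps it, had 34.2, 34.6 and 35.9 CPM in Ctrl and 24.2, 31.2 and 33.7 CPM in Ctrl+I/R. Mrc1 had 7.24, 6.73 and 5.32 CPM against 13.4, 6.11 and 6.89 CPM, and only library 1 of Ctrl+I/R stood above Ctrl (edgeR adjusted p = 0.32). Most of these calls leaned on all 6 libraries: without Ctrl library 2 only Cd68 stayed called, and leaving out the first Ctrl+I/R library left 2 (Cd68 and Cx3cr1). The number was 3 when Ctrl library 1 was left out and 4 when Ctrl library 3 was. Leaving out Ctrl+I/R library 2 gave 6, and leaving out library 4 gave 7, where C1qc dropped out and Ly6c2 came in. With sex as a covariate in all 12 libraries, Adgre1 and Ccr2 lost their calls (edgeR adjusted p = 0.103 and 0.0605) at values of 0.98 and 2.10 on the log2 scale.

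**Figure D2:**
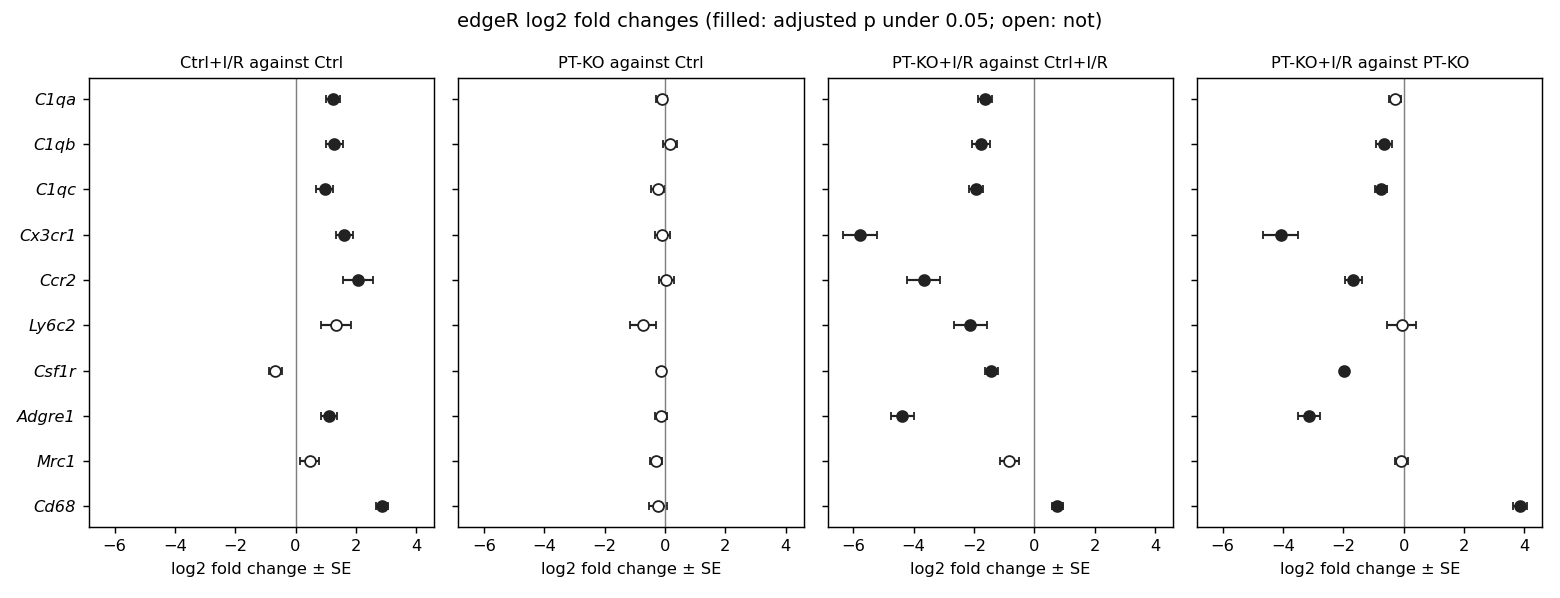
Log2 fold change (horizontal axis, with its SE as a bar) of each member in the 4 pairwise comparisons of edgeR. Filled points have an adjusted p under 0.05. Cd68 lies to the right of 0 in all comparisons but PT-KO against Ctrl, and Cx3cr1 and Adgre1 lie farthest to the left in both comparisons that contain PT-KO+I/R.

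Other genes of macrophages and monocytes, listed from general knowledge, moved unevenly in control mice. Of 9 resident macrophage genes tested besides the members, 1 rose and 2 fell, with a median log2 fold change of -0.15. Pf4, a chemokine of platelets and some macrophages, rose by 2.68 ± 0.51 on the log2 scale, while Folr2, a folate receptor of resident macrophages, had -1.30 ± 0.36 and Mertk, a receptor for dying cells, -0.85 ± 0.18. Of 9 monocyte genes tested, 7 rose and 0 fell (median 2.94), and the called genes with a mean over 1 CPM included Chil3 (4.57 ± 0.58), Itgam (4.05 ± 0.63), the integrin chain CD11b, and F13a1 (3.38 ± 0.62), the coagulation factor chain of monocytes. Of 15 genes common to phagocytes, 12 rose and 0 fell (median 1.55), with the scavenger receptor Msr1 at 3.89 ± 0.65 and lysozyme, Lyz2, at 2.31 ± 0.33. With sex as a covariate in all 12 libraries, 4 monocyte genes were called. Neutrophil genes rose too, 6 of 6 tested. Their summed level went from 2.08 to 2.72 CPM in Ctrl to 11.1 to 48.8 CPM in Ctrl+I/R. Ly6g, their defining marker, had 0 counts in Ctrl and at most 3 in each Ctrl+I/R library. No Ctrl library had more than 7 counts of Cxcr2 or Retnlg, or 6 of Itgam. These genes passed the low-count filter through their Ctrl+I/R libraries, which left little room for a fall. Genes of T cells (5 tested), B cells (3 tested) and natural killer cells (2 tested) were not called. The part of other leukocytes in the members' result was not tested. Of 6 proximal tubule genes 4 fell. Their summed level was 13316 to 14048 CPM in Ctrl and 3224 to 8055 CPM in Ctrl+I/R. Of 4 podocyte genes 3 fell, and of 4 fibroblast genes 2 rose. The part of these cells was not tested either.

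The growth factors and chemokines that the members answer to rose in the same comparison, 6 of 6 tested. Il34 went from 7.26 ± 4.82 to 53.6 ± 31.0 CPM (mean ± SD, n = 3; log2 fold change 2.89 ± 0.62) and Csf1 from 10.4 ± 2.15 to 30.1 ± 12.4 CPM (1.53 ± 0.30), both ligands of Csf1r. Of the Ccr2 ligands, Ccl2 rose by 3.24 ± 0.59 on the log2 scale, Ccl12 by 2.49 ± 0.64, and Ccl7 was at least 27.2-fold higher, since no Ctrl library had more than 3 of its counts. Fractalkine, the ligand of Cx3cr1, rose from 42.7 ± 4.23 to 98.9 ± 15.8 CPM (1.22 ± 0.15). Of 5 genes that act with or on C1q, only the complement component C4b rose (3.58 ± 0.68), and its libraries in Ctrl+I/R ran from 26.4 to 118 CPM. With sex as a covariate, 3 of the 6 signal genes were called.

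The injured kidneys of both genotype labels were compared by setting PT-KO+I/R beside Ctrl+I/R, groups in which Gfer itself was higher in every library labelled PT-KO+I/R. Here 9 of 10 members were called, 8 lower and 1 higher, against a background of 46.9% of 15281 tested genes called, 22.5% higher and 24.4% lower. The groups did not overlap for all 10 members, and for 58.7% of all genes. The median log2 fold change was -1.85 over the members and -0.01 over all genes. Under total counts the median of all genes moved by -0.21 and the balance of calls over all genes went from 3444 higher and 3725 lower to 1978 higher and 5080 lower. All 9 members stayed called in the same direction there, and Mrc1 was called lower as well.

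Cx3cr1 and Adgre1 were close to 0 in the libraries labelled PT-KO+I/R. Cx3cr1 had 0, 9 and 2 counts there, or 0, 0.401 and 0.129 CPM, against 16.6, 8.93 and 10.2 CPM in Ctrl+I/R. A count of 0 in the shallowest of these libraries allows up to 0.257 CPM (3 counts, counting error only). The log2 fold change was -5.77 ± 0.57 (edgeR adjusted p = 0.000353), or -7.21 without PT-KO+I/R library 3, which held most of the counts. Adgre1 had 6, 10 and 3 counts, or 0.513, 0.445 and 0.193 CPM, against 10.004, 5.85 and 8.10 CPM (-4.37 ± 0.38, edgeR adjusted p = 0.000251). Both genes passed the low-count filter through their Ctrl+I/R libraries, and under a minimum of 10 counts in every library they drop out of the test.

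The C1q chains fell together and by less. C1qa had 7.79, 8.01 and 5.29 CPM in PT-KO+I/R against 27.5, 16.4 and 20.8 CPM in Ctrl+I/R, a log2 fold change of -1.63 ± 0.24 (edgeR adjusted p = 0.00154). C1qb stood at 7.62, 4.59 and 3.87 CPM (-1.76 ± 0.30) and C1qc at 4.79, 4.18 and 3.68 CPM (-1.94 ± 0.22), both called lower. All 3 chains thus kept measurable levels in the libraries where the counts of Cx3cr1 were 0 to 9.

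The monocyte genes were lower as well. Ccr2 had 1.28, 1.60 and 2.06 CPM in PT-KO+I/R, below all 9 libraries of the other groups, against 37.2, 17.2 and 8.66 CPM in Ctrl+I/R, a log2 fold change of -3.67 ± 0.54 (edgeR adjusted p = 0.00154), or -2.97 without Ctrl+I/R library 1. Ly6c2 had 0.770, 0.445 and 0.967 CPM against 4.82, 3.08 and 1.26 CPM (-2.12 ± 0.54, edgeR adjusted p = 0.0145). With 9, 10 and 15 counts in PT-KO+I/R it too drops out under the minimum of 10 counts, and the call was lost when Ctrl+I/R library 1 (-1.62, edgeR adjusted p = 0.0544) or PT-KO+I/R library 3 was left out (-1.80, edgeR adjusted p = 0.0620). Ly6c1 went the other way, to 130, 80.0 and 106 CPM from 69.9, 80.9 and 67.0 CPM (0.53 ± 0.17, called higher), and its part in the Ly6c2 count was not tested.

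Csf1r had 13.006, 14.9 and 11.9 CPM in PT-KO+I/R, below every other library, and its log2 fold change from Ctrl+I/R was -1.42 ± 0.22 (edgeR adjusted p = 0.00171). Hmgxb3 had 28.1, 33.7 and 29.0 CPM in those libraries, about its level in Ctrl+I/R. Mrc1 had 4.62, 5.61 and 4.77 CPM against 13.4, 6.11 and 6.89 CPM, and was not called (-0.82 ± 0.32, edgeR adjusted p = 0.0620), though leaving out Ctrl+I/R library 2 (-1.04, edgeR adjusted p = 0.0193) or 4 (-0.97, edgeR adjusted p = 0.0461) brought the call. Mrc1 was also called lower by DESeq2 (adjusted p = 0.0364), and by edgeR without a low-count filter (adjusted p = 0.0362), in 1 fit to all 12 libraries and with sex as a covariate (adjusted p = 0.0275 in both). Cd68 alone rose. It had 20.1, 28.7 and 29.98 CPM against 18.0, 14.3 and 14.2 CPM, a log2 fold change of 0.76 ± 0.18 (edgeR adjusted p = 0.0117). A replicate block ended this call (edgeR adjusted p = 0.0934) and those of C1qb (0.0540) and Ly6c2 (0.256).

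The wider lists differed in how many of their genes fell. Of 15 phagocyte genes, 0 rose and 13 fell (median -1.87): Lyz2 went from 64.4 ± 30.9 to 4.67 ± 1.25 CPM (-3.80 ± 0.38), Cybb, the oxidase chain of phagocytes, by -3.44 ± 0.34, Fcgr1 by -3.71 ± 0.60, and Aif1, which encodes Iba1, was at least 14.3-fold lower. Of 10 resident macrophage genes tested, 6 fell and 1 rose (median -0.93). Ms4a7 had -2.73 ± 0.59 and Pf4 -1.38 ± 0.47, while Lyve1, which lymphatic endothelium also carries, rose by 2.404 ± 0.43. Of 11 monocyte genes, 3 fell and 0 rose (median -0.84), a share near the 24.4% of all genes called lower, among them Ms4a6c at -1.93 ± 0.40 and Plac8 at -0.92 ± 0.30. Chil3 and Itgam, named here because they were named for the rise in control mice, stood at 7.60 ± 1.11 and 3.32 ± 0.356 CPM against 10.1 ± 4.58 and 3.77 ± 2.02 CPM and were not called.

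Other leukocytes did not move as one. Summed T cell genes stood at 0.257 to 0.645 CPM in PT-KO+I/R against 4.996 to 14.7 CPM in Ctrl+I/R, with 2 of 2 tested called lower. No gene of this list had more than 4 counts in a PT-KO+I/R library. The tested genes thus passed the low-count filter only through Ctrl+I/R, and a call could only be lower. Summed B cell genes stood at 0 to 0.356 against 1.08 to 2.82 CPM, with none tested. Natural killer genes stood at 0.0856 to 0.129 against 1.08 to 5.45 CPM, and Ncr1 and Gzma were at 0 in all 3 libraries. Neutrophil genes were higher instead, at 60.4 to 93.8 against 11.1 to 48.8 CPM, with 4 of 7 tested called higher, led by Retnlg (3.34 ± 0.35), Mmp8 (2.13 ± 0.56) and S100a9 (1.67 ± 0.42). Ly6g, their defining marker, had at most 3 counts in every library of both groups. Their part in the members' result, that of Cd68 included, was not tested. The injury markers Havcr1 and Lcn2 summed to 3814 to 5212 CPM in PT-KO+I/R and 543 to 2563 CPM in Ctrl+I/R, and the 6 proximal tubule markers to 2329 to 3005 and 3224 to 8055 CPM. Both inner medulla markers fell as well, the water channel Aqp4 (-2.10 ± 0.38) and the urea transporter Slc14a2 (-0.999 ± 0.225), and they summed to 25.8 to 43.5 CPM in PT-KO+I/R and 72.3 to 81.8 CPM in Ctrl+I/R. Of 3 thick ascending limb genes 2 fell, Slc12a1 (-3.40 ± 0.76) and Cldn16 (-1.08 ± 0.27), while their summed level overlapped, at 1911 to 2353 and 1371 to 3610 CPM. The part of these regions in the members' result was not tested.

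Of the 6 signals tested, 5 fell and only Il34 rose. Il34 had 193 ± 16.1 CPM in PT-KO+I/R against 53.6 ± 31.0 CPM in Ctrl+I/R (1.84 ± 0.43, edgeR adjusted p = 0.010), while its receptor Csf1r was lower. The other ligand, Csf1, was lower by -0.86 ± 0.28 on the log2 scale. All 3 Ccr2 ligands fell with their receptor: Ccl2 from 7.91 ± 3.72 to 1.73 ± 0.529 CPM (-2.19 ± 0.40), Ccl7 by -3.70 ± 0.87, and Ccl12 was at least 16.1-fold lower, with no count in PT-KO+I/R. Fractalkine fell from 98.9 ± 15.8 to 49.97 ± 1.86 CPM (-0.99 ± 0.13), beside 48.2 ± 1.18 CPM in uninjured PT-KO.

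The comparison of PT-KO+I/R with PT-KO shares its injured libraries with the last one. It called 7 members, 6 lower and 1 higher, against a background of 65.5% of 15155 genes called, 32.9% higher and 32.7% lower, so the share called is near the background. The median log2 fold change was -0.70 over the members and 0.01 over all genes, and 6 members did not overlap, against 70.8% of all genes. Cd68 rose from 2.398, 1.72 and 1.35 to 20.1, 28.7 and 29.98 CPM, a 14.4-fold difference (3.85 ± 0.24, edgeR adjusted p = 5.32e-07). Cx3cr1 fell from 3.66, 2.75 and 4.66 CPM to near 0 (-4.08 ± 0.57, or -5.51 without PT-KO+I/R library 3), Adgre1 from 3.47, 3.23 and 3.497 CPM (-3.14 ± 0.36), Csf1r from 51.0, 54.7 and 50.1 CPM (-1.97 ± 0.11) and Ccr2 from 3.85, 5.55 and 6.44 CPM (-1.67 ± 0.28). Cx3cr1 and Adgre1 passed the filter through their PT-KO libraries and drop out under the minimum of 10 counts.

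The C1q chains lay nearer to their level before injury. C1qa had 8.46, 7.32 and 9.76 CPM in PT-KO and overlapped PT-KO+I/R (-0.28 ± 0.20, edgeR adjusted p = 0.246, 95% interval -0.68 to 0.12). C1qb was called lower at -0.65 ± 0.26 (edgeR adjusted p = 0.0447), but its groups overlapped and the call was lost without any of 5 of the 6 libraries, PT-KO library 1, 2 or 4 or PT-KO+I/R library 3 or 4 (edgeR adjusted p 0.0565 to 0.159). Total counts, 1 fit to all 12 libraries, sex as a covariate and a replicate block ended it as well (edgeR adjusted p = 0.0689, 0.0732, 0.0700 and 0.144). C1qc fell, from 7.45, 7.38 and 6.32 CPM to 4.79, 4.18 and 3.68 CPM, with no overlap (-0.75 ± 0.19, edgeR adjusted p = 0.00533), a call that the replicate block ended (edgeR adjusted p = 0.0552). Mrc1, with 6.37, 4.52 and 4.91 CPM in PT-KO, overlapped (-0.07 ± 0.21), as did Ly6c2 with 0.947, 0.377 and 0.920 CPM (-0.07 ± 0.48). Of 8 monocyte genes tested besides the members, 5 rose and 0 fell, with Chil3 at least 42.6-fold higher and Itgam higher by 4.02 ± 0.35, and of 15 phagocyte genes 4 rose and 5 fell. Neutrophil genes rose in 7 of 7 tested. No PT-KO library had more than 4 counts of Cxcr2 or Itgam, 3 of Retnlg, 2 of Chil3 or 1 of Mmp8. These genes passed the low-count filter through their PT-KO+I/R libraries, which left little room for a fall.

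Whether the I/R difference itself differed between genotypes was tested as the interaction over all 12 libraries. It was called for 8 members, 7 lower and 1 higher, against a background of 30.6% of 16168 genes, 14.3% higher and 16.4% lower, and the median was -1.60 over the members and -0.02 over all genes. Cx3cr1 had the largest interaction, -5.67 ± 0.63 on the log2 scale (edgeR adjusted p = 0.000125), followed by Adgre1 at -4.23 ± 0.42 (edgeR adjusted p = 7.02e-05). With 0 to 10 counts in the PT-KO+I/R libraries, these 2 fitted values are imprecise (that of Cx3cr1 was -7.14 without PT-KO+I/R library 3), and both genes drop out under the minimum of 10 counts. Next came Ccr2 at -3.71 ± 0.63 (edgeR adjusted p = 0.00135), or -3.01 without Ctrl+I/R library 1. The chains of C1q had -1.51 ± 0.32, -1.92 ± 0.41 and -1.70 ± 0.34 for C1qa, C1qb and C1qc, and Csf1r -1.29 ± 0.26. Cd68 had 0.99 ± 0.32 (edgeR adjusted p = 0.0343), a call that was lost without any of 8 of the 12 libraries, namely Ctrl 2 or 3, PT-KO 2 or 4, Ctrl+I/R 2 or 4, or PT-KO+I/R 3 or 4 (edgeR adjusted p 0.0551 to 0.0863). It was also lost with total counts (edgeR adjusted p = 0.0546), with sex as a covariate (0.0964) and with a replicate block (0.125). Mrc1 (-0.52 ± 0.39) and Ly6c2 (-1.38 ± 0.75) were not called. Fractalkine, by comparison, was called at -1.16 ± 0.16, and Il34 was not (0.47 ± 0.67).

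The resident and monocyte sides were then set against each other within each library, as the mean log2 CPM of C1qa, C1qb, C1qc and Cx3cr1 minus that of Ccr2 and Ly6c2. This difference was 1.64, 1.13 and 1.39 in the Ctrl libraries and 1.67, 1.83 and 1.51 in those of PT-KO. After injury it was 0.68, 0.79 and 2.12 in Ctrl+I/R libraries, against 1.119, 1.63 and 0.46 in the PT-KO+I/R ones. The resident side was thus the higher in every library, and the 4 groups overlapped, with means of 1.38 ± 0.26, 1.67 ± 0.16, 1.19 ± 0.80 and 1.07 ± 0.59 in the same order (SD, n = 3). The sides rose and fell together. The resident mean went from 2.76 ± 0.29 in Ctrl to 4.01 ± 0.39 in Ctrl+I/R and was 1.32 ± 0.26 in PT-KO+I/R, while the monocyte mean went from 1.38 ± 0.23 to 2.82 ± 0.98 and was 0.25 ± 0.33. The log2 values carry a prior count of 2, which limits how far Cx3cr1 can fall in this mean. With a prior count of 0.5, PT-KO+I/R minus Ctrl+I/R was -0.28. The direction of PT-KO+I/R minus Ctrl+I/R rested on the genes chosen. It was -0.12 with all 6 genes, 0.84 with the C1q chains alone on the resident side, and 0.67 with Ccr2 alone on the monocyte side. Ctrl+I/R minus Ctrl stayed below 0 under these choices, at -0.19, -0.29 and -0.53 in the same order.

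**Figure D3:**
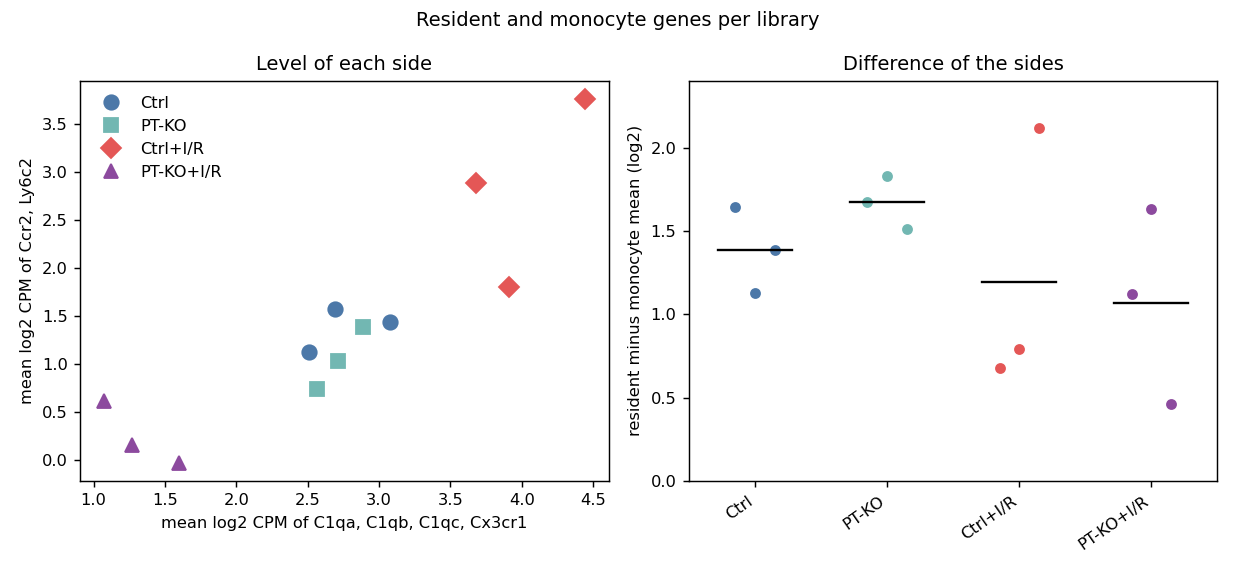
Left, mean log2 CPM of the 4 resident genes (horizontal) against that of the 2 monocyte genes (vertical) in each library. Right, their difference by group, with the mean of 3 as a line. Ctrl+I/R lies highest and PT-KO+I/R lowest on both axes, Ctrl and PT-KO overlap between them, and the differences on the right overlap between groups.

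The larger divide ran through the members in another way, as ratios of counts within a library show, which no scaling between libraries can move. For each 100 counts of the C1q chains summed, Cx3cr1 had 12.2, 21.5 and 15.6 counts in the Ctrl libraries and 15.7, 12.3 and 18.0 in those of PT-KO. The ratio was 23.2, 20.7 and 19.8 in Ctrl+I/R libraries but 0, 2.39 and 1.01 in the PT-KO+I/R ones. The last group lay below all others, so Cx3cr1 did not keep its proportion to the C1q chains. For Ccr2 the ratio was 13.3, 28.9 and 23.9 in the Ctrl libraries, 16.5, 24.9 and 24.9 in those of PT-KO, 52.3, 39.8 and 16.8 after I/R in control mice, and 6.36, 9.55 and 16.1 in the PT-KO+I/R libraries, the highest of which lay within the range of Ctrl. All of these lay below the PT-KO libraries. Cd68 stood at 2.91 to 4.83 counts per 100 of Csf1r in Ctrl and at 2.69 to 4.70 in PT-KO. It reached 34.4 to 58.1 in the Ctrl+I/R libraries, and 155 to 251 in those of PT-KO+I/R, with no overlap between these and the shams. Adgre1 had 125 to 231 counts per 100 of Cd68 in Ctrl, 41.0 to 57.1 in Ctrl+I/R and 0.645 to 2.55 in PT-KO+I/R.

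**Figure D4:**
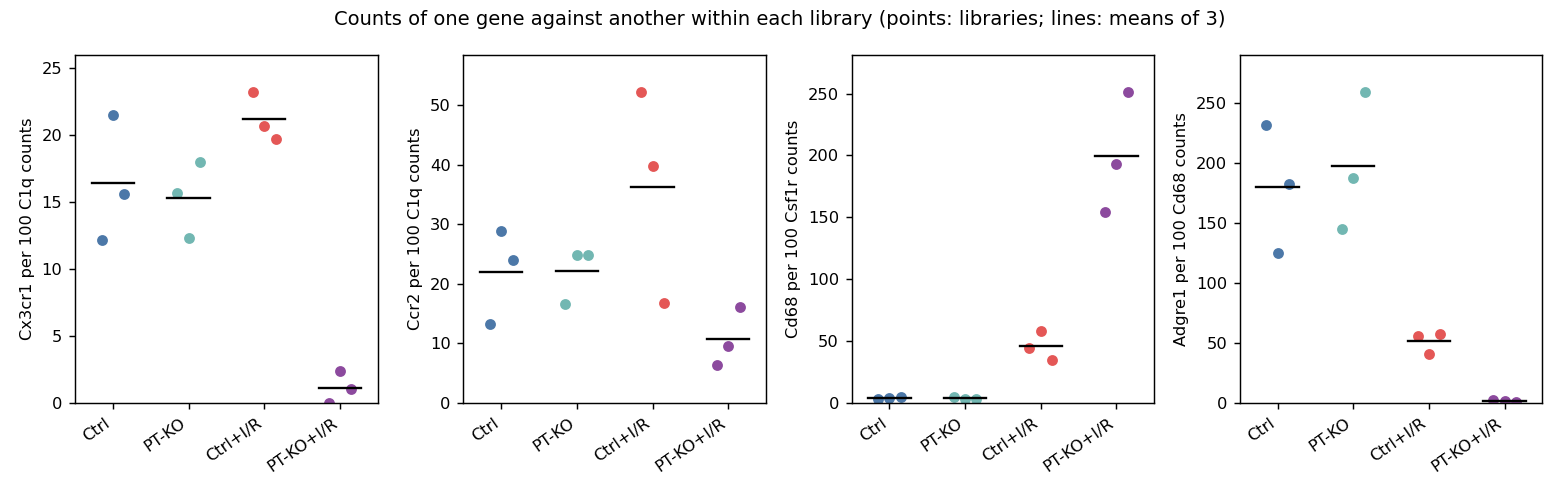
Counts of one member per 100 counts of another in the same library (vertical axes), by group. Points are libraries and lines the means of 3. Cx3cr1 per C1q lies at 2.39 or less in PT-KO+I/R and at 12.2 or more in the other groups, and Cd68 per Csf1r lies at 155 or more in PT-KO+I/R.

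The share of each C1q chain was taken next. C1qa made up 37.6% ± 5.37 of their summed counts in Ctrl and 35.6% ± 2.49 in PT-KO, against 39.0% ± 1.21 after I/R in control mice and 42.5% ± 4.73 after I/R in knockout mice (SD, n = 3). Both injured groups overlapped Ctrl, and PT-KO lay below both of them. C1qb made up 28.5% to 30.8% in Ctrl and 31.7% to 37.9% in PT-KO, with no overlap, against 30.7% to 32.96% in Ctrl+I/R and 27.3% to 37.7% in PT-KO+I/R. Over the 12 libraries the log2 CPM of the chains correlated with Pearson's r of 0.91 to 0.94, given as a description, since the libraries fall into 4 groups and share their scaling. Adgre1 and Cx3cr1 had r = 0.95, Ccr2 and Ly6c2 0.79, and Cd68 and Csf1r -0.84 over the same 12 libraries.

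Outside the members, the genes whose log2 CPM followed the resident mean most closely over the 12 libraries, among 14309 candidates, were Mpeg1 (Pearson's r = 0.98), a pore-forming protein of phagocytes, Npl (0.98), an enzyme of sialic acid breakdown, Gen1 (0.98), a nuclease that resolves DNA junctions, Lcp1 (0.97), an actin bundler of leukocytes, and Fancd2 (0.96), a DNA repair protein. Mpeg1 stood at 17.6 ± 2.78 CPM in Ctrl, 48.6 ± 18.4 in Ctrl+I/R libraries and 8.74 ± 1.13 in the PT-KO+I/R ones, and Npl at 48.7 ± 6.45, 111 ± 18.8 and 18.7 ± 4.57 CPM. Among the 5 genes closest to the monocyte mean were H2-DMa (0.96), which loads peptides onto class II molecules, Cd52 (0.96), Ptprc (0.96), the leukocyte antigen CD45, and Cfi (0.96), a complement protease. Ptprc stood at 14.3 ± 1.51 CPM in Ctrl, 30.4 ± 10.5 in Ctrl+I/R libraries and 6.13 ± 0.353 in the PT-KO+I/R ones. These correlations too carry no test and run over the same 4 groups.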

How the data were processed

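The deposited table holds raw counts of reads per gene, made by the authors for 12 bulk RNA-seq libraries. The submitters' processing notes name HISAT2 2.0.4 and mm10; the counting program, annotation and use of strand are not given in the sources used here. Counts were tested as deposited with edgeR 4.0.16 (filterByExpr, TMM, quasi-likelihood F test, Benjamini-Hochberg, adjusted p under 0.05 called) with R 4.3.3. A comparison used its own 6 libraries, and the interaction all 12. SE is the log2 fold change over the root of F. The members, gene lists and named genes were chosen with earlier results of these data known. Of each list at most 4 called genes with a mean over 1 CPM were named, by size of change; ligands of members and defining markers of other cells were added. CPM per kb used the exon length of GENCODE M21, and promoters came from RefSeq. Scripts were tested on simulated data. Alternatives were DESeq2 1.42.0, total counts, other filters, a replicate block, 1 fit to all libraries, sex as a covariate and leaving out each library. Same-numbered libraries did not deviate together (12 pairs, median r -0.02, 1 over 0.1). This cannot exclude pairing, which is not stated, and the numbers were not taken as pairs. A gene that the naming rule gives is not reported here.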

Additional observations from a re-analysis of the deposited data

Results flagged for a closer look

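The difference made by I/R differed between PT-KO and control mice for 8 of the 10 macrophage genes, by the interaction term of edgeR over all 12 libraries, beside 30.6% of all 16168 genes tested (14.3% higher and 16.4% lower). The interaction was -5.67 on the log2 scale for Cx3cr1, -4.23 for Adgre1, -3.71 for Ccr2, -1.92 for C1qb, -1.70 for C1qc, -1.51 for C1qa and -1.29 for Csf1r. Cd68 was the one gene with an interaction above 0, at 0.99, and this call was lost with total counts, sex as a covariate, the replicate block and in 8 of the 12 fits that left out 1 library. The values of Cx3cr1 and Adgre1 rest on 0 to 10 counts in each PT-KO+I/R library. Mrc1 and Ly6c2 did not pass the threshold in this test.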

How the results depend on the processing

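In the comparison of Ctrl+I/R with Ctrl the number of members called ran from 1 to 7 when each library was left out in turn, beside 7 with all 6 libraries. Each of these fits had 1 library fewer, and no other cause was tested. In the other comparisons this number stayed within 1.5 times its value in every alternative run. The replicate block (same-numbered libraries) called 6 members between the injured groups, losing Cd68, C1qb and Ly6c2, and 9 in Ctrl+I/R against Ctrl. Whether the numbers pair the libraries is not stated. Under the block the value of PT-KO against Ctrl, which was not called, turned to -0.079 for C1qb and -0.16 for Ccr2. For PT-KO+I/R against PT-KO the value turned to 0.47 for Ly6c2. Total counts turned Ccr2 in PT-KO against Ctrl to -0.084, and sex as a covariate turned Csf1r to 0.18, C1qc to 0.30 and Cx3cr1 to 0.19. Leaving out 1 library moved PT-KO against Ctrl between -0.24 and 0.044 for C1qa, -0.43 and 0.062 for C1qc, -0.29 and 0.10 for Cx3cr1 and -0.12 and 0.23 for Ccr2. The same moved the difference of PT-KO+I/R from PT-KO between -0.18 and 0.080 for Mrc1 and -0.40 and 0.24 for Ly6c2. None of these was called. The resident minus monocyte difference moved with its genes: with the C1q chains alone it was 0.84 for PT-KO+I/R minus Ctrl+I/R and 0.24 for PT-KO+I/R minus PT-KO. With Ccr2 alone these were 0.67 and 0.20, and PT-KO minus Ctrl was -0.067. The cause of these moves was not tested. Counts of 0 to 10 for Cx3cr1 and Adgre1 in PT-KO+I/R limit how precisely their folds are known.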

Other observations

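Cells that neighbour the macrophages moved in more than one way when injured PT-KO kidneys were set beside injured control kidneys. Of 2 dendritic cell genes tested, only Itgax, the integrin chain CD11c that some macrophages also carry, fell, from 8.00 ± 2.90 to 1.07 ± 0.635 CPM (log2 fold change -2.98 ± 0.45, edgeR adjusted p = 0.00161), and Xcr1 had no count in PT-KO+I/R. Of 6 endothelial genes, 4 rose and 1 fell: Kdr, a receptor for VEGF, rose by 0.63 ± 0.14 on the log2 scale, and Plvap, a protein of fenestrated capillaries, had -0.62 ± 0.14. Of 4 fibroblast genes 1 fell, the collagen chain Col1a1, from 126 ± 17.5 to 11.5 ± 5.56 CPM (-3.47 ± 0.32). All 4 genes listed for red blood cells and their precursors fell. Their summed level was 37.4 to 43.1 CPM in the PT-KO+I/R libraries against 86.2 to 217 CPM in Ctrl+I/R. They did not fall alike: Slc4a1 went from 14.6 ± 13.6 to 0.233 ± 0.137 CPM, and the globin gene Hba-a1 from 20.1 ± 8.54 to 7.91 ± 0.256 CPM. The part of these cells in the levels of the macrophage genes was not tested.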
